A study of Mus musculus with 15 samples.

Results

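The interferon response and antigen presentation genes were followed across 5 kinds of mouse cells. They are a named list of 37 genes: 5 genes for major histocompatibility complex (MHC) molecules, the machinery that makes and loads their peptides, and regulators, sensors and effectors of the interferon response. Of the 37, 34 had at least 1 probe set that names a single gene, out of 18193 such genes on the array. H2-T23, Isg15 and Ifi44 were not analysed here.

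The RNA of 5 groups was read on 15 Affymetrix mouse arrays, 3 biological replicates a group. MEF are mouse embryonic fibroblasts of the B6D2F1 background, from which iPS cells had been made. CL11 is an embryonic stem (ES) cell line of the B6D2F1 background. IP14D-1 and IP20D-3 are induced pluripotent stem (iPS) cell lines of the B6D2F1 background, and IP14D-101 is an iPS line labelled C57x129S2, so for line IP14D-101 the genetic background and the line cannot be told apart. Each ES or iPS group is a single cell line, and the labels name no interferon treatment. ES and iPS cells had grown with LIF on mitomycin C-treated fibroblasts, and which of them had serum and which a replacement for it in the medium is not given. In such bulk RNA, fewer cells of a type and less RNA per cell cannot be told apart.

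MHC class I molecules sit on the cell surface and show T cells short peptides from inside the cell. They consist of a heavy chain, here H2-K1 or H2-D1, and the light chain B2m, and they are filled with peptides that the proteasome cuts, the TAP transporter pumps into the endoplasmic reticulum and tapasin (Tapbp) helps to load. Interferons bind receptors that act through JAK kinases and STAT and IRF factors, and these switch on antiviral effectors as well as much of the class I pathway. Pluripotent cells are known for low class I levels and for a weak response to interferon.

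All levels below are log2(signal + 16) of the scaled deposited signals. A level of 11.04, the 95th percentile of 39 olfactory receptor genes, served as background, because these odorant receptors are normally silent outside the nose. A change was called at an adjusted p under 0.05 in limma, over all 18193 genes. Where the dimmer group's mean lay below background, each of its arrays below background was set to background. The fold is then given as at least the brighter mean over the mean of these values. Where neither group's mean rose above background, no fold is printed. Errors on levels are standard deviations (SD, n = 3) and errors on changes are standard errors. Levels of different genes cannot be set against each other, since each probe set binds with its own strength.

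The labelled cell types carried their markers. All 8 pluripotency markers lay above background in each ES and iPS line, against 1 of 8 in MEF, and all 16 fibroblast markers lay above it in MEF. The summed signal of the fibroblast list in the lines was 2.94% (CL11), 4.17% (IP20D-3), 3.54% (IP14D-1) and 3.46% (IP14D-101) of that in MEF, with 9 of 16 markers above background in IP14D-1 and 6 in each other line. MEF also carried macrophage markers: 10 of 12 lay above background there, C1qa at 13.82 and Lyz2 at 14.70 among them, against 3 or 4 in the lines. C1qa, C1qb, Lyz2, Tyrobp, Ptprc and Cd14 were below background in all 4 lines. The summed macrophage signal ran from 1.01e+05 to 1.07e+05 on the MEF arrays, 8.6e+04 to 9.56e+04 for CL11, 5.21e+04 to 5.5e+04 for line IP14D-1, 3.82e+04 to 4.57e+04 for line IP14D-101 and 4.89e+04 to 6.71e+04 for line IP20D-3, and Laptm5 and Cd68 were brighter in the lines than in MEF. Both marker sums were lower in the lines than in MEF, as many members were, and their part in those results was not tested. The arrays' trimmed means differed by up to 1.83 times before scaling, and within-group correlations ran from 0.941 to 0.954.

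Interferon acts on many of these genes through a short promoter element, the interferon-stimulated response element (ISRE), whose core is spelled GAAANNGAA. A promoter was found for 29 of the 34 members in the RefSeq table of build GRCm38.p6, which covers 250 bases before and 50 bases after each start. Of these 29, 12 (41.4%) held GAAANNGAA on either strand, against 9.76% of 27025 genes with a promoter. Such a match is a description of letters and does not show that a factor binds. The sequences below are shown because these 3 genes fell in all 4 lines and hold an ISRE core within 150 bases before their start. Bst2 and Rsad2, which were called higher in all 4 lines, also hold the core there and are not shown. Psmb9 and Ifitm1 rose, and H2-K1, H2-D1, Tapbp, Irf9, Ifit2 and Ifi35 fell, in all 4 lines with no match in their promoters. The search covered this spelling and window only, so a promoter without a match is not shown to lack an ISRE. Whether the core goes with the direction of change was not tested. Each sequence covers the 150 bases before the start, on the gene's own strand, with every match in capitals. B2m lies at chr2:122147537-122147686 on the plus strand, with its match starting at position -139. Ifit1 lies at chr19:34640739-34640888 on the plus strand and holds 3 matches, of which the first 2 overlap. Ifih1 lies at chr2:62646256-62646405 on the minus strand.
B2m: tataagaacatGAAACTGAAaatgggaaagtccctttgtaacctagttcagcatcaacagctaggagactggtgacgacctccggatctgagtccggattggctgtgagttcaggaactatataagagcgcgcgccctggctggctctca
Ifit1: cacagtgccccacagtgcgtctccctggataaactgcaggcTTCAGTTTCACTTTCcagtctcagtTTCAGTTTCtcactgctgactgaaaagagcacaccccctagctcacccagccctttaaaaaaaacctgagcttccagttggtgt
Ifih1: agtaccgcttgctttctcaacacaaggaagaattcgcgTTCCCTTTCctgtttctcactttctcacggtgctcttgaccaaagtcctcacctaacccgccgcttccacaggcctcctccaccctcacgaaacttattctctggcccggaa
The matches of Ifit1 and Ifih1 lie on the opposite strand, so their capitals show the reverse complement of the core.

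The members were lower in the pluripotent lines than in MEF more often than they were higher. In CL11, 17 of 34 fell and 5 rose, where 23.8% of all genes fell and 30.3% rose. IP14D-1 had 16 lower and 5 higher (all genes 22.9% and 29.9%), IP14D-101 had 18 lower and 7 higher (24.7% and 30.4%), and IP20D-3 had 16 lower and 5 higher (23.7% and 30.4%). The median change of the 34 was -1.06 (CL11), -0.94 (IP20D-3), -0.69 (IP14D-1) and -0.94 (IP14D-101) on the log2 scale, beside 0.07, 0.10, 0.13 and 0.05 over all genes. These 4 comparisons share the MEF arrays.

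A core of 11 members fell in all 4 lines: B2m, H2-K1, H2-D1, Tapbp, Irf9, Ifit1, Ifit2, Ifi35, Ifih1, Usp18 and Eif2ak2. Another 4 rose in all of them, namely Psmb9, Bst2, Rsad2 and Ifitm1. Of these, Rsad2 lay below background in all groups but IP20D-3, and its probe sets disagreed. The test was passed in no line by 4 members (Tap1, Nlrc5, Mx1 and Tlr3), a share not computed over all genes. All these counts are by the brightest probe sets. Over all genes, 17.3% fell and 23.5% rose in all 4 lines. Fewer members were detected in the lines. In MEF 28 members (82.4%) had a mean above background, against 20 (58.8%) for CL11, 23 (67.6%) for line IP14D-1, 21 (61.8%) for line IP14D-101 and 23 (67.6%) for line IP20D-3. Of all genes, 61.7% to 64.3% lay above background in each group. Nlrc5, Mx1, Mx2 and Tlr3 were below background in every group, so no fold is given; Mx2, an antiviral GTPase, nevertheless passed the test as lower in IP14D-1 and IP14D-101. A second Tlr3 probe set, 1422782_s_at, was dimmer over all arrays but brighter in MEF (10.41 against 10.09). It passed as lower in CL11 (adjusted p 0.014, limma) and IP20D-3 (0.0487), also below background in every group.

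**Figure D1:**
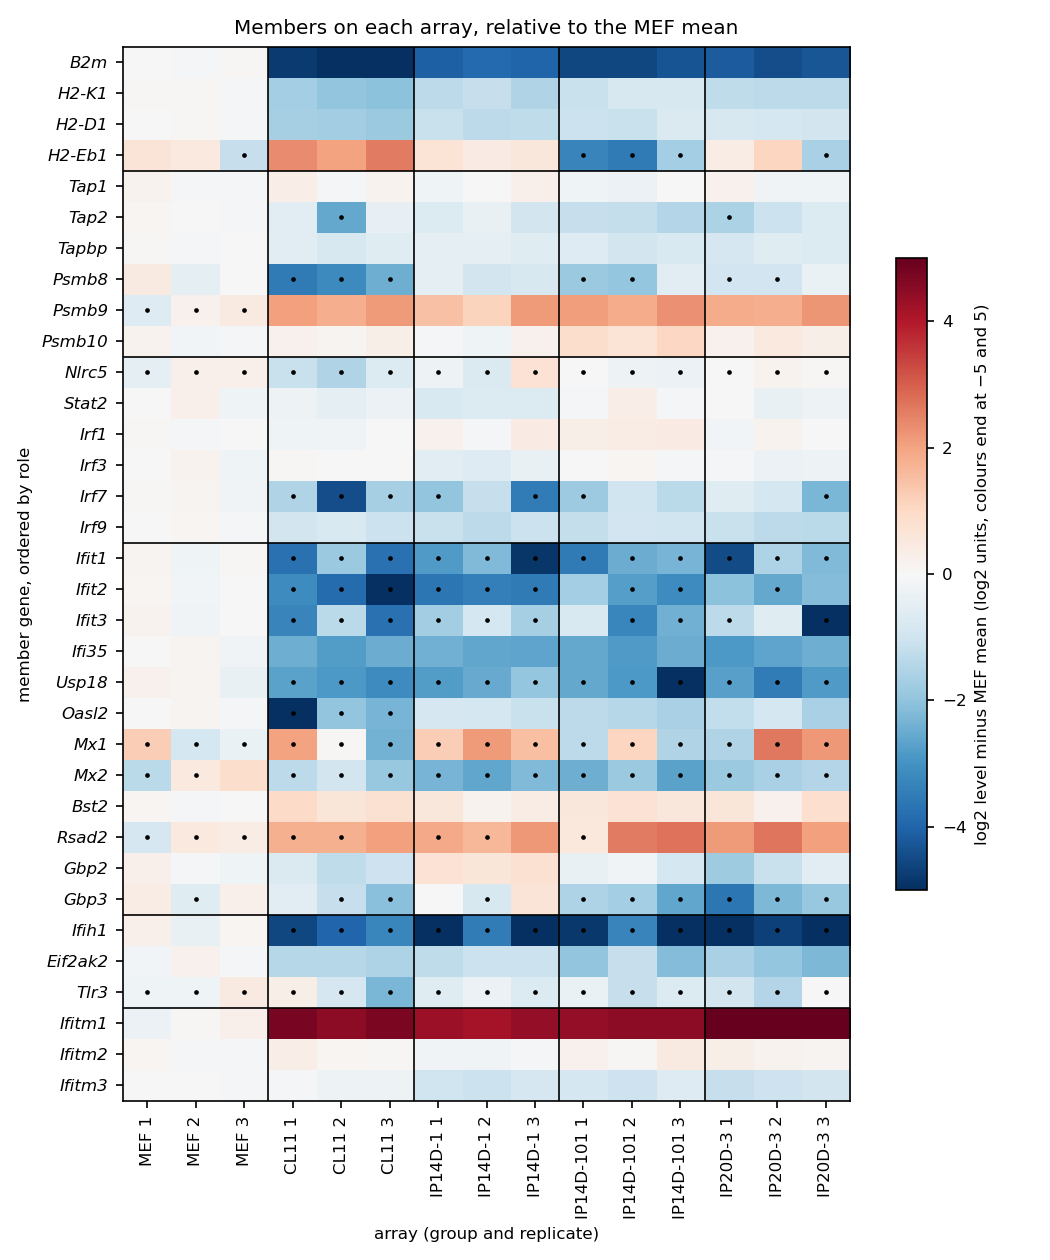
Each row is a member and each column an array; colour is the log2 level minus the mean of the 3 MEF arrays, and a black dot marks a level at or below background (11.04). B2m, Ifi35 and Ifih1 are blue on all 12 ES and iPS arrays and Ifitm1 is red on all 12, while Tap1 stays pale.

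**Figure D2:**
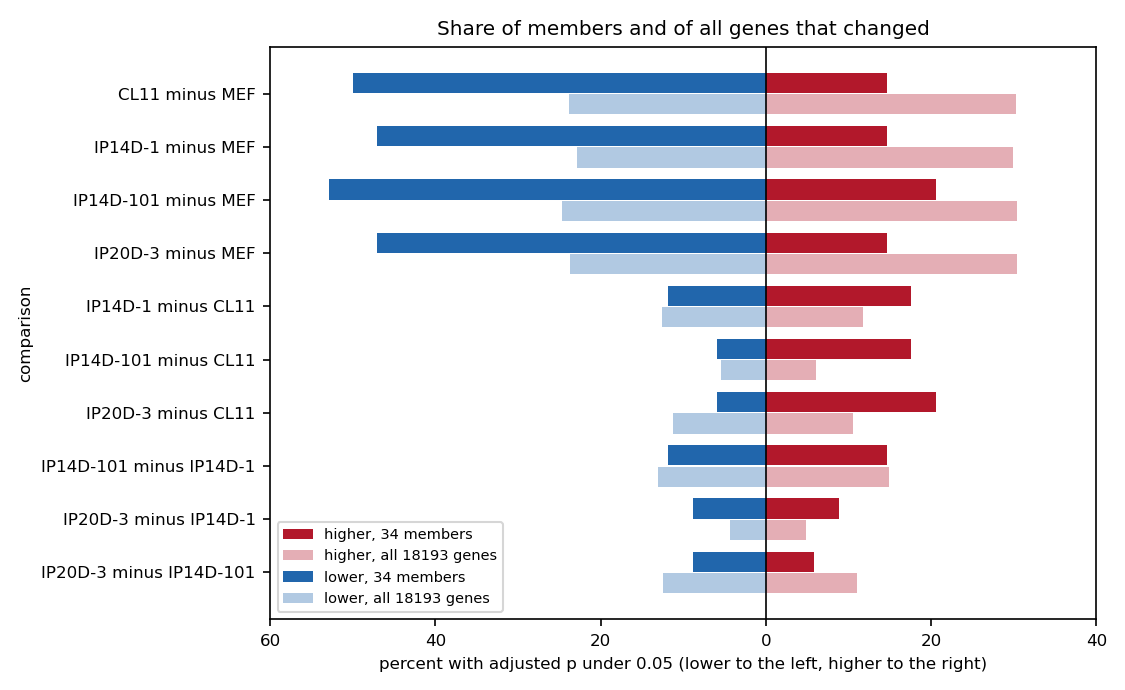
Bars give the percent of the 34 members (solid) and of all 18193 genes (pale) that were higher (right) or lower (left) at an adjusted p under 0.05, for each of 10 comparisons. Against MEF, 47.1% to 52.9% of members were lower beside 22.9% to 24.7% of all genes.

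Among the MHC molecules, B2m, the light chain that every class I molecule needs, had the deepest fall by the probe sets used. On the 3 arrays of each group it stood at 19.05, 18.99 and 19.12 for MEF, at 14.27, 13.67 and 14.07 for CL11, at 14.99, 15.18 and 15.05 for line IP14D-1, at 14.51, 14.50 and 14.72 for line IP14D-101, and at 14.90, 14.63 and 14.78 for line IP20D-3. Every line array was thus far below every MEF array, and CL11 was the lowest group. The changes from MEF were -5.05 ± 0.12 (CL11), -4.28 ± 0.12 (IP20D-3), -3.98 ± 0.12 (IP14D-1) and -4.48 ± 0.12 (IP14D-101) (adjusted p from 1.0e-16 to 3.1e-15, limma). In signal, the lines kept 3.06% (CL11), 5.15% (IP20D-3), 6.34% (IP14D-1) and 4.5% (IP14D-101) of the MEF level, next to fibroblast marker sums of 2.94%, 4.17%, 3.54% and 3.46%. Those sums rest largely on Fn1, at 17.40 (CL11) to 18.03 (IP20D-3), where no other fibroblast marker exceeded 13.96 in any line. Single markers differed widely: the lines kept 22.1% to 34.4% of Fn1, 1.82% to 70.2% of Pdgfra and 0.0474% to 0.565% of Col1a1. What these shares mean for B2m was not tested. A separate B2m probe set gave changes between -3.97 and -3.57.

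The heavy chain H2-K1 fell less. Its levels were 15.71, 15.73 and 15.56 for MEF, 13.97, 13.71 and 13.63 for CL11, 14.35, 14.52 and 14.17 for line IP14D-1, 14.54, 14.86 and 14.85 for line IP14D-101, and 14.38, 14.36 and 14.34 for line IP20D-3. No line array reached the MEF range, and no iPS array reached down to the CL11 range. The change from MEF was -1.89 ± 0.12 in CL11, a 3.72-fold fall (adjusted p 5.7e-11), and -1.32, -0.92 and -1.31 in IP14D-1, IP14D-101 and IP20D-3. H2-D1, the other heavy chain, had group means of 15.48 ± 0.06, 13.72 ± 0.08, 14.25 ± 0.09, 14.51 ± 0.22 and 14.62 ± 0.05 (SD, n = 3), in the order of groups used so far. By this brightest probe set it fell 3.37-fold in CL11 and 1.82-fold to 2.35-fold in the iPS lines.

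H2-D1 had 9 probe sets, which did not all give the same picture. From 6 to 7 of the 9 fell in each line against MEF, and none rose. The size varied: 1452544_x_at changed by -2.91, -3.08, -5.74 and -6.02 from CL11 to IP20D-3 in the same order, and 1426324_at passed in CL11 (-1.96, adjusted p 0.0203) and in no iPS line (0.258 to 0.777). Between the lines they split. The brightest, used above, and 1451784_x_at were higher in IP14D-101 and IP20D-3 than in CL11. Probe sets 1425614_x_at (means of 11.18, 11.50, 8.94 and 9.19 from CL11 to IP20D-3) and 1452544_x_at (11.41, 11.25, 8.59 and 8.31) were lower there, with changes of -2.24 and -1.99 and of -2.83 and -3.11 and adjusted p from 0.00296 to 0.0164. In IP14D-101 and IP20D-3 both lay below background. On these arrays the suffix _x marks a probe set that may also bind other transcripts, and the H2-K1 probe set used carries it as well, as does that of Irf3. Which transcripts each one bound was not tested.

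**Figure D3:**
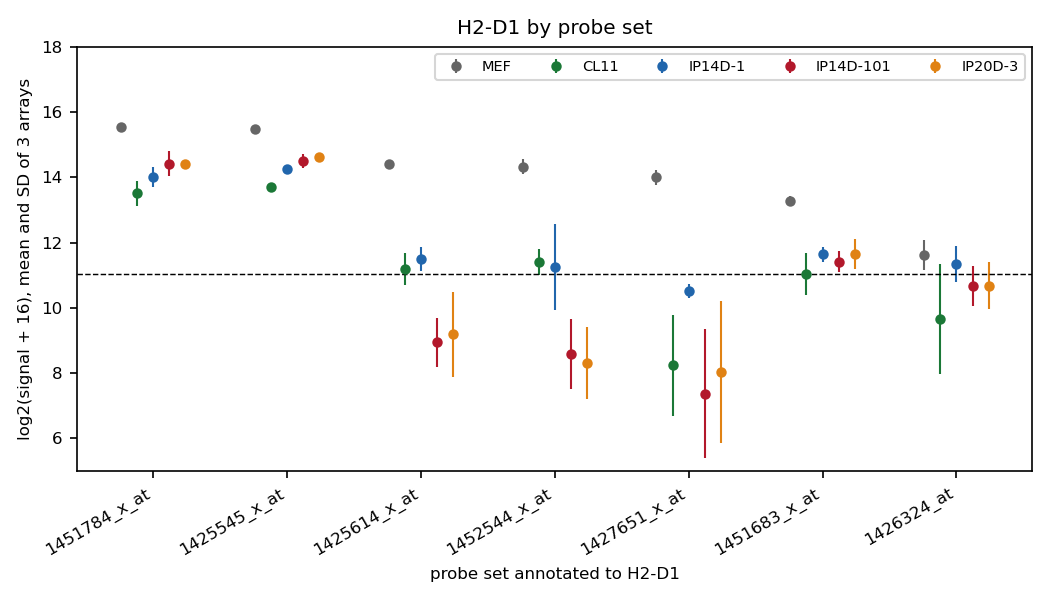
Mean log2 level with SD of 3 arrays for the 7 H2-D1 probe sets that were above background in at least 1 group; the dashed line is background (11.04). Most of these probe sets lie lower in the lines than in MEF, and 1425614_x_at and 1452544_x_at drop further in IP14D-101 and IP20D-3 and the brightest pair do not.

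H2-Eb1, a chain of an MHC class II molecule that normally marks antigen-presenting cells, behaved differently from class I. Its levels were 11.70, 11.55 and 9.90 for MEF, 13.40, 13.07 and 13.66 for CL11, 11.74, 11.46 and 11.60 for line IP14D-1, 7.73, 7.52 and 9.36 for line IP14D-101, and 11.44, 12.11 and 9.44 for line IP20D-3. CL11 was thus highest with no overlap, and IP14D-101 lay below background on all 3 arrays. CL11 exceeded MEF by 2.33 ± 0.64 (adjusted p 0.00446, a 5.02-fold rise). It exceeded IP14D-101 by at least 5.06-fold (adjusted p 3.1e-05) and IP20D-3 by at least 3.6-fold (adjusted p 0.0114). IP14D-101 was also lower than MEF (adjusted p 0.00083), but the MEF mean of 11.05 bounds this at 1.01-fold or more. The call for IP20D-3 rests on 1 array: without IP20D-3 replicate 3 the difference was -1.60, with an adjusted p of 0.0719. Against IP14D-1 the difference of -1.77 ± 0.64 just missed the threshold (adjusted p 0.0526). Of 6 other class II genes, Cd74, the class II invariant chain, rose in CL11 and H2-Ab1 fell in IP20D-3 against MEF, and no other class II gene passed that test in any line.

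Of 4 further genes measured from a list headed other class I, H2-M3 and Mr1 fell in every line, where 17.3% of all genes fell in all 4. They present bacterial peptides and vitamin metabolites, and the changes of H2-M3 lay between -1.08 and -0.99. Cd1d1 fell in IP14D-1 and IP20D-3 (means of 11.30 and 11.57, against 12.69 in MEF). H2-Ke6, which is listed by its symbol and not shown to be a class I molecule, fell in no line. Mr1 was below background in the lines, at least 3.13-fold lower in each.

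Peptide processing and loading changed in both directions. The immunoproteasome swaps in 3 inducible catalytic subunits, Psmb8, Psmb9 and Psmb10, and these did not move together. Psmb9 was at 9.97, 10.81 and 11.04 for MEF, at 12.67, 12.43 and 12.74 for CL11, at 12.08, 11.71 and 12.75 for line IP14D-1, at 12.68, 12.48 and 12.90 for line IP14D-101, and at 12.47, 12.43 and 12.80 for line IP20D-3. All 12 line arrays were higher than the MEF arrays, whose mean was below background. The rise was at least 2.97-fold (CL11), 2.89-fold (IP20D-3), 2.2-fold (IP14D-1) and 3.14-fold (IP14D-101) (adjusted p from 9.3e-06 to 2.3e-04).

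Psmb8 went the other way. It read 12.40, 11.51 and 11.97 for MEF, 8.43, 8.77 and 9.51 for CL11, 11.46, 11.06 and 11.14 for line IP14D-1, 10.10, 10.01 and 11.44 for line IP14D-101, and 11.01, 10.99 and 11.62 for line IP20D-3. CL11 stood apart below all other groups. Its fall from MEF was at least 1.89-fold (log2 change -3.05 ± 0.48, adjusted p 2.0e-05), and IP14D-101 fell too (at least 1.72-fold, adjusted p 0.0155), a call lost with median scaling (-1.10, 0.0774), quantile normalization (-1.07, 0.0881) or the mean of both probe sets (-0.56, 0.382) and without MEF replicate 1 (adjusted p 0.074) or IP14D-101 replicate 1 (0.0634) or 2 (0.0678). In IP14D-1 and IP20D-3 the differences of -0.74 ± 0.48 and -0.75 ± 0.48 did not pass. Psmb10 rose in IP14D-101 by 0.88 ± 0.13 (1.84-fold, adjusted p 1.1e-05; unscaled 0.31, 0.111) and in IP20D-3 by 0.34 ± 0.13 (adjusted p 0.0348), the latter lost without IP20D-3 replicate 2 (0.27, adjusted p 0.147) or 3 (0.36, 0.0597) or MEF replicate 2 (0.28, 0.123) or 3 (0.31, 0.0963), and turned to -0.29 without scaling. All 5 measured genes for proteasome activators and constitutive catalytic subunits rose in every line (Psme1, Psme3, Psmb5, Psmb6 and Psmb7), where 23.5% of all genes rose in all 4. The rises ran from 0.21 for Psme1 in IP14D-1 to 1.54 for Psmb6 in IP14D-101.

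Tap1 and Tap2 form the peptide transporter. Tap1 passed no test, its group means lying between 12.15 and 12.47. Tap2 read 12.65, 12.53 and 12.50 for MEF, 12.01, 10.01 and 12.15 for CL11, 11.87, 12.20 and 11.63 for line IP14D-1, 11.39, 11.35 and 11.08 for line IP14D-101, and 10.96, 11.50 and 11.87 for line IP20D-3. All line arrays were below the MEF arrays, with 1 low array in CL11. The fall passed in CL11 (-1.17 ± 0.44, adjusted p 0.031), IP14D-101 (-1.29 ± 0.44, 0.0182) and IP20D-3 (-1.12 ± 0.44, 0.0389), but not in IP14D-1 (-0.66 ± 0.44, 0.233). None of the 3 calls is firm: that in CL11 became -0.48 (adjusted p 0.24) without CL11 replicate 2 and was lost without any 1 MEF array (adjusted p 0.0571 to 0.0757), that in IP14D-101 was lost without IP14D-101 replicate 3 (0.0533), that in IP20D-3 was lost without IP20D-3 replicate 1 (0.149) or 2 (0.0692) or any 1 MEF array (0.0683 to 0.0909), and median scaling lost all 3 (0.0566 to 0.0769). Tapbp, the loading factor, fell in the 4 lines, with changes between -0.77 and -0.51. All 6 measured chaperone and trimming genes of the endoplasmic reticulum fell in every line, where 17.3% of all genes fell in all 4: Calr, Canx, Pdia3, Hspa5, Erap1 and Tapbpl. The trimming enzyme Erap1 changed by -2.36 in CL11 and -0.93 in IP14D-1, and the tapasin relative Tapbpl was at least 2.9-fold lower in CL11 and changed by -1.09 in IP14D-1.

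Tap1 and Psmb9 are neighbours that are read in opposite directions, with 225 bases between their starts. The stretch between them, on chromosome 17, is shown because Psmb9 rose in all lines while Tap1 passed in none; it was chosen after these values were seen. It covers chr17:34187331-34187555 of GRCm38.p6, is written on the plus strand, on which Tap1 is read, and holds 0 matches to GAAANNGAA.
Tap1-Psmb9: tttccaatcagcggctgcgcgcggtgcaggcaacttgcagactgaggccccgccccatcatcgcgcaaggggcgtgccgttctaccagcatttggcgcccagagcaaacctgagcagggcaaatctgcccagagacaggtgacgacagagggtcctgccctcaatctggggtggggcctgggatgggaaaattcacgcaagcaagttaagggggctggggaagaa

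**Figure D4:**
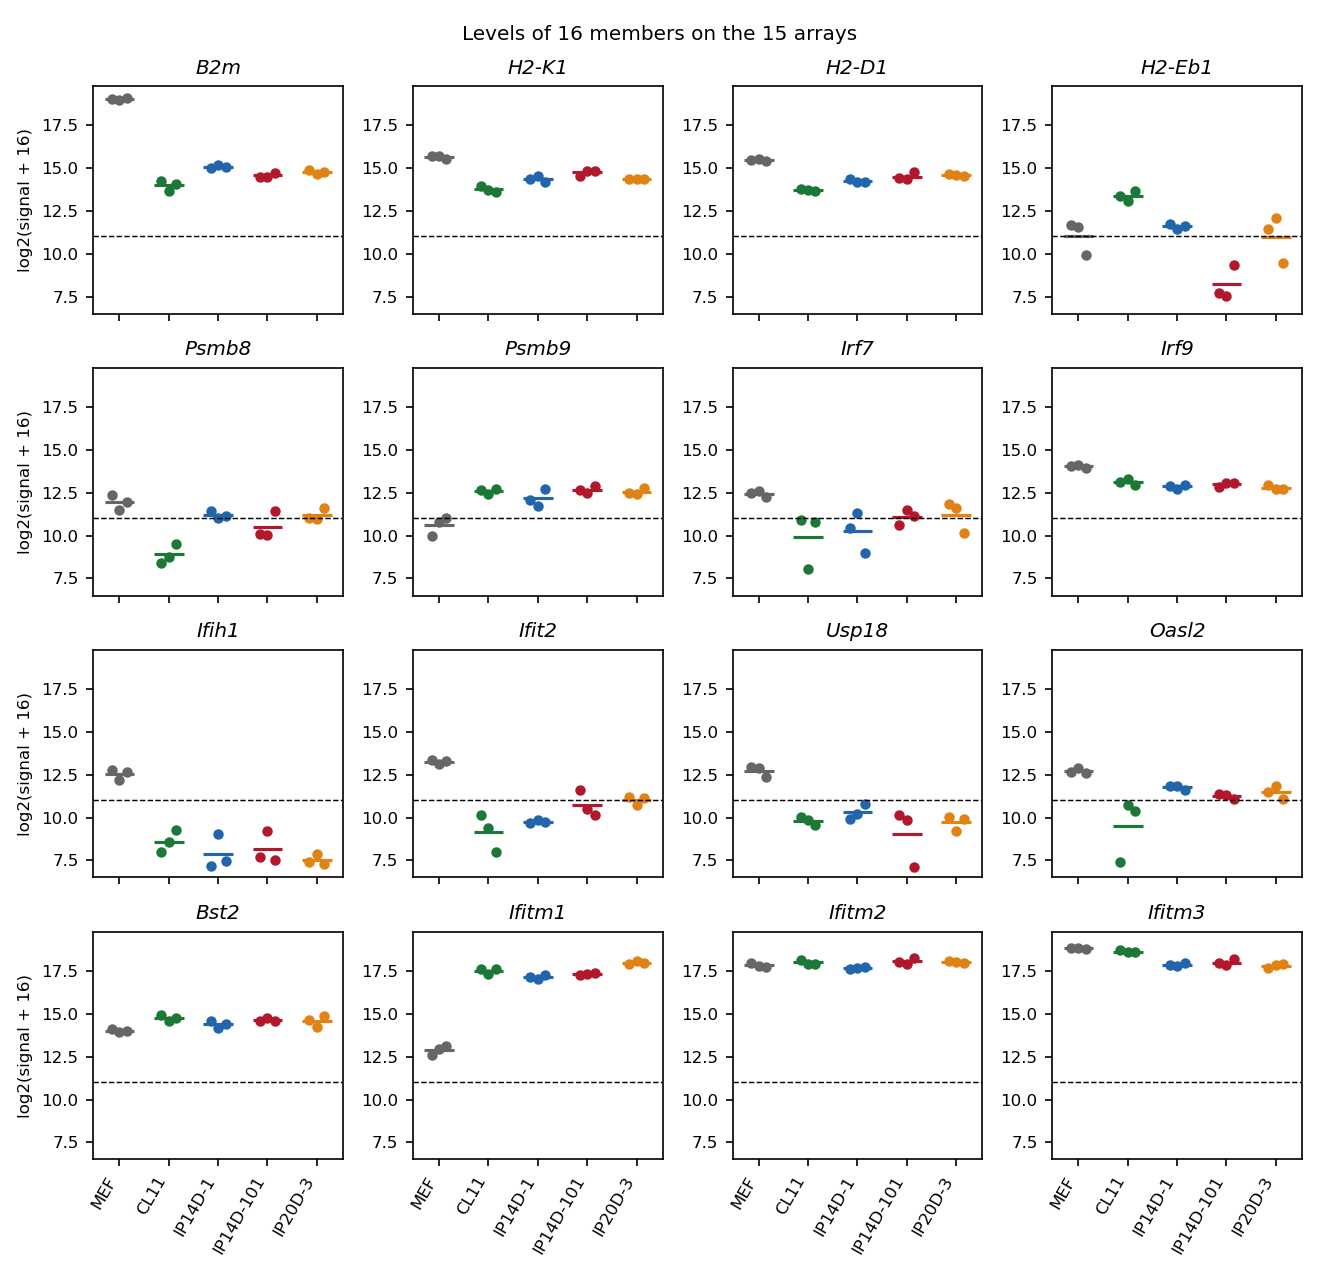
Log2 levels of 16 members; each point is an array, each bar the mean of 3 arrays and the dashed line background (11.04). B2m, Ifih1, Ifit2 and Usp18 lie lower in all lines than in MEF, Psmb9 and Ifitm1 lie higher, and Psmb8 and Oasl2 are lowest in CL11.

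Among the regulators, Irf9, the DNA-binding part of the complex that type I interferon activates, fell in every line. It read 14.07, 14.13 and 13.93 for MEF, 13.12, 13.30 and 12.97 for CL11, 12.92, 12.75 and 12.97 for line IP14D-1, 12.85, 13.10 and 13.06 for line IP14D-101, and 12.94, 12.72 and 12.70 for line IP20D-3. The line arrays lay between 12.70 and 13.30, below all MEF arrays, with changes from -0.91 ± 0.15 in CL11 to -1.26 ± 0.15 in IP20D-3 (adjusted p from 5.8e-07 to 3.0e-05). Its partner Stat2 was at 13.27, 13.54 and 13.06 for MEF, 13.04, 12.86 and 13.00 for CL11, 12.53, 12.59 and 12.59 for line IP14D-1, 13.25, 13.62 and 13.21 for line IP14D-101, and 13.32, 12.91 and 13.05 for line IP20D-3. By this probe set IP14D-1 alone passed the test against MEF, at -0.72 ± 0.17 (adjusted p 0.00145), whereas the dimmer 1421911_at passed in CL11 (-1.34, 0.0363) and not in IP14D-1 (-0.80, 0.218).

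Irf7, which amplifies type I interferon production, was uneven. Its levels were 12.51, 12.60 and 12.27 for MEF, 10.94, 8.04 and 10.80 for CL11, 10.47, 11.30 and 8.97 for line IP14D-1, 10.65, 11.48 and 11.13 for line IP14D-101, and 11.87, 11.60 and 10.18 for line IP20D-3. All 12 line arrays were below MEF, and the spread within lines was wide. CL11 was at least 2.68-fold lower (adjusted p 0.00476) and IP14D-1 at least 2.52-fold lower (0.0123), which without IP14D-1 replicate 3 became a log2 change of -1.57 with an adjusted p of 0.0836. Differences of -1.37 ± 0.70 in IP14D-101 and -1.24 ± 0.70 in IP20D-3 did not pass. Irf3, which responds to viral nucleic acid, fell in IP14D-1 (-0.52 ± 0.11, adjusted p 0.00046 by its brightest probe set), where the value was 0.13 once probe sets that may bind several transcripts were set aside. Irf1, an activator of class I genes, rose in IP14D-101 (0.36 ± 0.12, adjusted p 0.0134), where it turned to -0.22 without scaling.

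Genes on the route from interferon to these regulators moved both ways. Of 13 measured genes for interferons, their receptors and JAK-STAT signalling, 6 fell in every line: the receptor chains Ifnar1, Ifnar2, Ifngr1 and Ifngr2 and the kinases Jak1 and Jak2. Ifnar2 changed by -3.14 ± 0.21 in CL11 and by -2.83 to -2.49 in the iPS lines, and Jak1 by -2.03 to -1.57. The attenuators Socs3, Ptpn2 and Ptpn6 rose in every line, Ptpn6 by 2.05 ± 0.23 in CL11. Ifnb1 and Ifng, the interferon genes on this list, were below background in all 5 groups. Of 12 other regulators, Irf2 and Rela fell and Nfyb and Nfyc rose in every line, where 17.3% of all genes fell and 23.5% rose in all 4. Irf2 was at least 3.37-fold lower in each.

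Sensors of viral RNA were led by Ifih1, also known as MDA5. It read 12.78, 12.17 and 12.64 for MEF, 7.97, 8.55 and 9.28 for CL11, 7.17, 9.03 and 7.49 for line IP14D-1, 7.71, 9.22 and 7.55 for line IP14D-101, and 7.41, 7.86 and 7.26 for line IP20D-3. It was above background on all MEF arrays and on none of the 12 line arrays, so that each line was at least 2.82-fold lower (adjusted p from 4.8e-06 to 8.4e-05). Eif2ak2, the kinase PKR that halts translation on sensing viral RNA, changed by -1.47, -1.14, -1.76 and -1.93 from CL11 to IP20D-3 in the same order (standard error 0.24) and stayed above background. Of its 3 probe sets, 1422005_at passed in no line (-0.43 to -0.24) and 1440866_at passed in the 3 iPS lines but not in CL11 (-0.94, adjusted p 0.0777). Of 14 other sensing genes, Myd88, Ticam1, Ikbke and Tlr4 fell in every line and Trim25 and Aim2 rose in every line, where 17.3% of all genes fell and 23.5% rose in all 4. Ddx58, the sensor RIG-I, rose in CL11 (0.96 ± 0.10), IP14D-1 (0.59 ± 0.10) and IP20D-3 (0.65 ± 0.10) and fell in IP14D-101 (-0.28 ± 0.10, adjusted p 0.0238).

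Among 12 interferon-stimulated effectors, 5 to 7 fell in each line and 2 or 3 rose, where 22.9% to 24.7% of all genes fell and 29.9% to 30.4% rose. Ifit2, which binds viral RNA and blocks translation, read 13.38, 13.15 and 13.28 for MEF, 10.14, 9.42 and 7.96 for CL11, 9.66, 9.87 and 9.74 for line IP14D-1, 11.59, 10.50 and 10.14 for line IP14D-101, and 11.20, 10.71 and 11.12 for line IP20D-3. Every line array was below every MEF array. The group means fell by at least 4.7-fold in CL11 and IP14D-1, 4.14-fold in IP14D-101 and 4.45-fold in IP20D-3 (adjusted p from 1.4e-06 to 0.001). Its relative Ifit1 read 11.65, 11.30 and 11.54 for MEF, 7.78, 9.65 and 7.78 for CL11, 8.65, 9.30 and 6.64 for line IP14D-1, 7.95, 9.00 and 9.16 for line IP14D-101, and 7.04, 9.97 and 9.28 for line IP20D-3. All 12 line arrays were below background and the MEF arrays only just above it, which bounds the fall at 1.37-fold or more (adjusted p from 0.003 to 0.0112); without IP20D-3 replicate 1 the adjusted p in that line was 0.0801.

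Usp18, which removes ISG15 from proteins and damps the interferon receptor, read 12.96, 12.88 and 12.35 for MEF, 10.05, 9.86 and 9.57 for CL11, 9.94, 10.22 and 10.81 for line IP14D-1, 10.17, 9.86 and 7.14 for line IP14D-101, and 10.03, 9.24 and 9.91 for line IP20D-3. Again no line array was above background, a fall of at least 3.23-fold in each (adjusted p from 7.6e-05 to 0.004). Ifi35 fell by nearly the same amount everywhere, with changes between -2.65 and -2.55 (standard error 0.15), and stayed above background throughout.

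Oasl2, an antiviral protein of the OAS family, was lowest in the ES line. It read 12.68, 12.87 and 12.60 for MEF, 7.43, 10.74 and 10.41 for CL11, 11.86, 11.83 and 11.62 for line IP14D-1, 11.40, 11.31 and 11.11 for line IP14D-101, and 11.49, 11.85 and 11.10 for line IP20D-3. CL11 was below background on all 3 arrays and every iPS array was above it. Against MEF the fall in CL11 was at least 3.2-fold (adjusted p 1.2e-04); in IP14D-101 it was -1.44 ± 0.59 (adjusted p 0.0464), lost on leaving out any 1 of the 6 arrays (0.0749 to 0.107) and with median scaling (-1.10, 0.135).

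The guanylate-binding proteins attack the vacuoles of intracellular pathogens. Gbp2 had group means of 12.93, 11.92, 13.62, 12.46 and 11.77 from MEF to IP20D-3 in the same order, falling in CL11 and IP20D-3 and rising in IP14D-1 (0.69 ± 0.27, adjusted p 0.0419), a rise lost without MEF replicate 2 (0.0938) or 3 (0.128) or any 1 IP14D-1 array (0.0653 to 0.101), unscaled (0.60, 0.102) or with median scaling (0.67, 0.0501). Gbp3 fell in IP14D-101 and IP20D-3, by at least 1.52-fold. Ifit3 fell below background in CL11 (at least 1.85-fold, adjusted p 0.0354) and IP20D-3 (at least 1.73-fold, 0.0422), but without IP20D-3 replicate 3 the latter was -0.95 on the log2 scale (adjusted p 0.333), and leaving out any 1 MEF array (0.0622 to 0.0924 over both lines), CL11 replicate 1 (0.0978) or 3 (0.126) also ended a call.

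Bst2, or tetherin, which holds budding viruses on the cell, rose in all 4 lines, by 0.76, 0.38, 0.62 and 0.56 in the same order (standard error 0.15; adjusted p from 1.8e-04 to 0.0362). The rise depended on the scaling, since the unscaled values gave 0.34, 0.29, 0.05 and -0.08, none of them called. The smallest, in IP14D-1, was lost without MEF replicate 2 (adjusted p 0.109) or 3 (0.0777) or IP14D-1 replicate 1 (0.17) or 3 (0.0752) and with median scaling (0.36, 0.0612). Rsad2, or viperin, had means of 9.04 in MEF and 10.90 to 11.33 in the lines, so it crossed background in IP20D-3 only, by at least 1.22-fold, and 1421008_at, a separate Rsad2 probe set, fell in CL11 (-2.27, adjusted p 0.0116). In MEF the probe set used was the dimmest of 3, at 9.04 against 10.76 (1421008_at) and 9.84 (1421009_at). The Rsad2 probe sets thus disagreed, near or below background.

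Other interferon-stimulated genes moved both ways. Of 26 measured outside the member list, 8 fell and 4 rose in CL11, 8 and 5 in IP14D-1, 10 and 4 in IP14D-101, and 8 and 6 in IP20D-3, where 22.9% to 24.7% of all genes fell and 29.9% to 30.4% rose. Rtp4, Ifi27, Ifi47, Ifi204, Irgm1, Xaf1 and Lgals3bp fell in every line, Lgals3bp by at least 21.9-fold and Rtp4 by at least 4.19-fold. Pml, the scaffold of nuclear bodies, and the RNA-sensing enzymes Oas2 and Oas3 rose in every line, Pml by 3.13 ± 0.10 in CL11 and by 2.29 to 2.92 in the iPS lines. Of all genes, 17.3% fell and 23.5% rose in every line.

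The IFITM proteins sit in membranes and block viral entry. Ifitm1 showed the largest rise of any member. It read 12.60, 12.94 and 13.15 for MEF, 17.63, 17.35 and 17.62 for CL11, 17.17, 17.07 and 17.30 for line IP14D-1, 17.30, 17.36 and 17.37 for line IP14D-101, and 17.89, 18.07 and 17.97 for line IP20D-3. All 12 line arrays were above every MEF array, the means by 4.64 ± 0.11, 4.28 ± 0.11, 4.45 ± 0.11 and 5.08 ± 0.11, or 24.9, 19.4, 21.8 and 33.8 times (adjusted p from 3.1e-17 to 3.5e-16).

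Ifitm3 moved the opposite way in the iPS lines. Its levels were 18.88, 18.86 and 18.81 for MEF, 18.75, 18.59 and 18.59 for CL11, 17.87, 17.78 and 18.00 for line IP14D-1, 17.96, 17.83 and 18.19 for line IP14D-101, and 17.71, 17.83 and 17.92 for line IP20D-3. The iPS arrays formed a lower set that overlapped neither MEF nor CL11. The falls from MEF were 1.95-fold, 1.81-fold and 2.04-fold in IP14D-1, IP14D-101 and IP20D-3 (adjusted p from 7.5e-09 to 9.5e-08), and in CL11 the difference of -0.21 ± 0.09 did not pass (adjusted p 0.0584). Ifitm2 varied little, at 17.95, 17.79 and 17.77 for MEF, 18.17, 17.94 and 17.91 for CL11, 17.65, 17.67 and 17.75 for line IP14D-1, 18.06, 17.89 and 18.29 for line IP14D-101, and 18.12, 18.01 and 17.97 for line IP20D-3. Its only call against MEF was in IP14D-101 (0.25 ± 0.09, adjusted p 0.0325); it was lost without MEF replicate 2 (0.0969) or 3 (0.104) or IP14D-101 replicate 1 (0.0572) or 3 (0.188), and turned to -0.32 without scaling.

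The iPS lines were then compared with the ES line CL11, and these 3 comparisons share the CL11 arrays. IP14D-1 had 6 members higher and 4 lower, where 11.7% of all genes were higher and 12.6% lower. IP14D-101 had 6 higher and 2 lower (6.04% and 5.47%), and IP20D-3 had 7 higher and 2 lower (10.5% and 11.3%). Higher in all 3 were B2m, H2-K1, H2-D1 and Psmb8, all of class I presentation, and Ifitm3 was lower in all 3. Over all genes, 1.88% were higher and 1.67% lower in all 3.

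B2m exceeded CL11 by 1.07 ± 0.12 in IP14D-1 (2.1-fold, adjusted p 4.1e-06), 0.57 ± 0.12 in IP14D-101 (1.49-fold, 0.00404) and 0.77 ± 0.12 in IP20D-3 (1.7-fold, 1.3e-04). The separate B2m probe set gave 0.24, 0.21 and 0.41, of which only the last passed (adjusted p 0.0489). Fibroblast marker sums were also higher in the iPS lines, at 3.54%, 3.46% and 4.17% of MEF in the same order, against 2.94% in CL11. Single markers went both ways: in IP14D-1 Col1a1 was higher than in CL11 (12.28 against 8.67) and Pdgfra lower (9.98 against 13.56). Their part in these differences was not tested. H2-K1 was 1.49-fold, 1.97-fold and 1.5-fold higher and H2-D1 1.44-fold, 1.73-fold and 1.86-fold, the latter with the disagreement between probe sets given above. The probe sets of H2-K1, which all carry the suffix _x, differed too. In the same order, 1451931_x_at gave 0.66, 0.58 and 0.73, all called, and 1427746_x_at gave -0.55, -0.03 and -0.40, none called. The dimmer 1450534_x_at passed in no iPS line. Averaging a gene's probe sets lost B2m in IP14D-101 (0.39, adjusted p 0.059) and H2-K1 in IP14D-1 (0.39, 0.149) and IP20D-3 (0.36, 0.206). For H2-D1 it gave -0.26 in IP14D-101 (adjusted p 0.683) and 0.06 in IP20D-3 (0.925), so both calls were lost and the first changed sign. Unscaled values lost B2m in IP14D-101 (0.42, adjusted p 0.132) and H2-K1 in IP20D-3 (0.37, 0.0777), and median scaling lost H2-K1 (0.33, 0.073) and H2-D1 (0.28, 0.159) in IP14D-1.

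Members called with a fitted change from CL11 of 2-fold or more also included Psmb8, Oasl2, Gbp2, Ifit2 and H2-Eb1. For Psmb8, Oasl2 and Ifit2 the CL11 mean lay below background, and the bounds do not show a 2-fold difference. Psmb8 was higher by 2.31 ± 0.48 in IP14D-1 and 2.30 ± 0.48 in IP20D-3 (at least 1.13-fold and 1.12-fold over background). In IP14D-101 (1.61 ± 0.48, adjusted p 0.0359) both groups lay below background, and the call was lost without CL11 replicate 1 (0.12) or 2 (0.0943) or IP14D-101 replicate 3 (0.178). Averaged with a dimmer Psmb8 probe set, the change was 1.03 (adjusted p 0.175), 1.31 (0.129) and 1.33 (0.08) in IP14D-1, IP14D-101 and IP20D-3, so none passed. Oasl2 was at least 1.66-fold higher in IP14D-1 (adjusted p 0.00882) and at least 1.36-fold in IP20D-3 (0.0229), the second lost without CL11 replicate 1 (0.91, adjusted p 0.0625) or IP20D-3 replicate 1 (0.0612) or 2 (0.082); in IP14D-101 the difference of 1.75 ± 0.59 did not pass (0.0653). Gbp2 was higher in IP14D-1 only, 3.24-fold (1.70 ± 0.27, adjusted p 1.7e-04). Ifit2 was called in IP20D-3 (1.84 ± 0.52, adjusted p 0.0156), with both groups below background, and lost without CL11 replicate 3 (1.23, adjusted p 0.0878) or IP20D-3 replicate 1 (0.0563).

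Ifitm3 differed from CL11 by -0.76 ± 0.09, -0.65 ± 0.09 and -0.82 ± 0.09 in IP14D-1, IP14D-101 and IP20D-3 (adjusted p from 2.4e-06 to 8.3e-05). Ifitm1 was higher in IP20D-3 (0.44 ± 0.11, adjusted p 0.00742) and lower in IP14D-1 (-0.36 ± 0.11, 0.0247). The first was lost unscaled (0.22, adjusted p 0.363), with median scaling (0.31, 0.0777) and without CL11 replicate 2 (0.0534). The second was lost unscaled (-0.03, 0.915) and without CL11 replicate 1 (0.098) or 3 (0.1) or IP14D-1 replicate 1 (0.0669) or 2 (0.112). Ifitm2 was lower in IP14D-1 (-0.32 ± 0.09, adjusted p 0.0186), which was 0.01 unscaled and lost without CL11 replicate 1 (0.108) or IP14D-1 replicate 1 (0.0671) or 2 (0.0607). Irf3 was lower in IP14D-1 (-0.56 ± 0.11), and Psmb10 (0.66 ± 0.13) and Irf1 (0.48 ± 0.12) were higher in IP14D-101; unscaled, all 3 were lost (adjusted p 0.181, 0.0623 and 0.161). On 20 members no iPS line passed the test against CL11, where 24.3% (IP14D-1), 11.5% (IP14D-101) and 21.9% (IP20D-3) of all genes were called. The share of all genes called in no iPS line was not computed, so these members are not shown to be unusual.

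**Figure D5:**
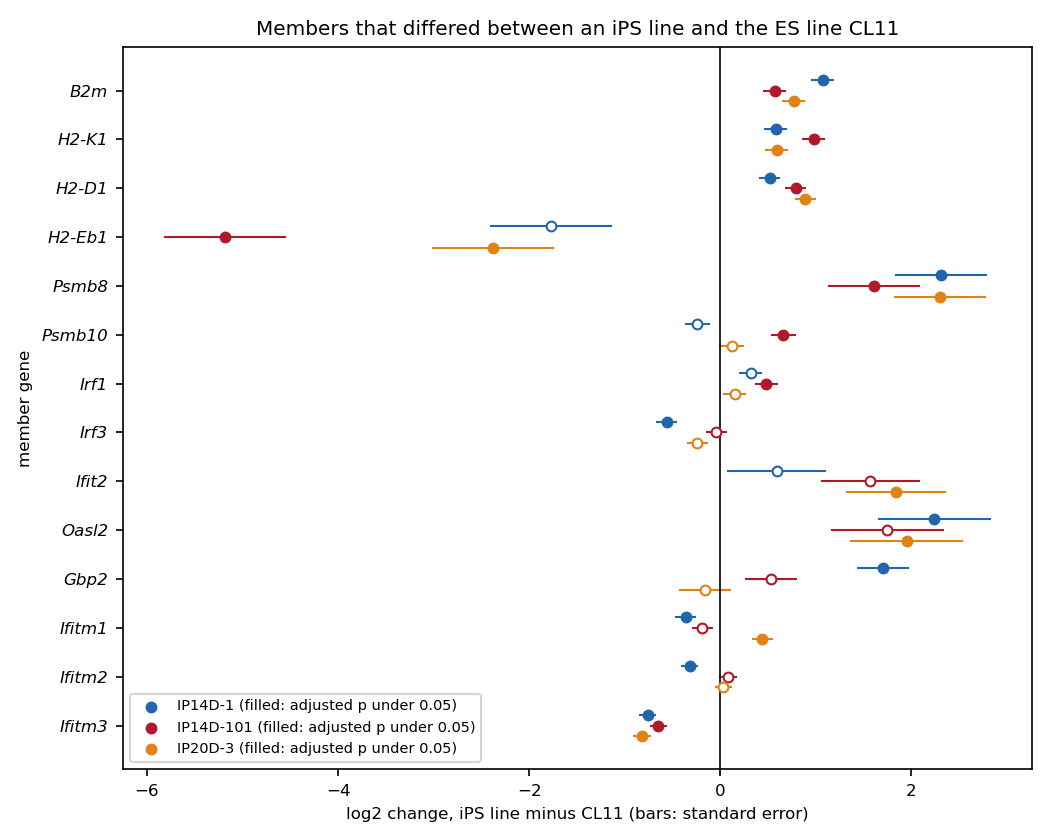
Log2 change from CL11 with its standard error for the 14 members called in at least 1 iPS line; filled points have an adjusted p under 0.05. B2m, H2-K1, H2-D1 and Psmb8 are filled to the right of 0 and Ifitm3 to the left of 0 in all 3 lines, and H2-Eb1 in IP14D-101 lies at -5.18.

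Between iPS lines, 5 to 9 members differed in each comparison. IP14D-101 against IP14D-1 had 5 higher and 4 lower (all genes 14.9% and 13.1%). IP20D-3 against IP14D-1 had 3 higher and 3 lower (4.87% and 4.33%), and IP20D-3 against IP14D-101 had 2 higher and 3 lower (11% and 12.5%). H2-Eb1 was lower in IP14D-101 than in IP14D-1 (-3.40 ± 0.64, at least 1.48-fold, adjusted p 5.6e-04). Gbp2 was highest in IP14D-1, 2.24-fold over IP14D-101 (adjusted p 0.00339) and 3.61-fold over IP20D-3 (2.7e-04), and both Gbp2 probe sets passed. Psmb10 was highest in IP14D-101, 1.87-fold over IP14D-1 and 1.45-fold over IP20D-3. Ifitm1 was highest in IP20D-3, by 0.80 ± 0.11 over IP14D-1 (unscaled 0.25, adjusted p 0.2) and 0.63 ± 0.11 over IP14D-101. Against IP14D-1, IP14D-101 also had more Stat2 (0.79 ± 0.17; unscaled 0.32, adjusted p 0.227; mean of both probe sets 0.77, 0.0668) and less B2m (-0.50 ± 0.12, which median scaling reduced to -0.13, adjusted p 0.521). Of the 6 calls between IP20D-3 and IP14D-1, those of H2-D1, Gbp3, Ifitm2 and Eif2ak2 were each lost on leaving out some single array, with 3 to 4 calls remaining.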

How the data were processed

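The table deposited by the authors holds 1 linear intensity per probe set and array, and per the submitters' processing notes these are MAS5 signals from Affymetrix Expression Console (no versions given); raw scans were not used here. Of 45101 probe sets, 64 were array controls, 34945 named 1 gene, 932 several and 9160 none by the platform annotation. A gene was represented by its brightest single-gene probe set, by the mean log2 level over all arrays. Most of these arrays are of ES and iPS lines, so the choice leans towards probe sets bright in the lines. The arrays' 2% trimmed means ran from 11198.1 to 20466, and all arrays were brought to a common trimmed mean before taking log2(signal + 16). In R 4.3.3, limma 3.58.1 fitted group means to all 15 arrays with a variance trend, and p-values of 10 contrasts were adjusted by Benjamini-Hochberg. Arrays called biological replicates in the design text measure only the spread between these samples. The number of arrays limits the precision.

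The model was tested on simulated arrays. In these, 100 genes were changed by 1 and 100 by 2 on the log2 scale in 1 group, and the scaling was not simulated. In the data, 54.1% of all genes were called in CL11 against MEF, so the simulated error rate need not carry over. Sizes of change were recovered nearly in full and false calls were few there. A target set for the share of changes found over all genes was not met: most changes in genes below background were missed. Above background, 75.9% of changes of 1 and 93.8% of changes of 2 were found. A member without a call is therefore not shown to be unchanged, least of all below background.

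The members, gene lists and rules were chosen with earlier results of these data known. Named were all members; arrays are printed for those with the widest range of group means in each role, and members called with a fitted change of 2-fold or more from CL11 are described. Pathway and marker lists came from general knowledge. Promoters are RefSeq's, matched by symbol. Another motif searched in them is not reported here. Other scalings, pseudocounts, probe-set choices, models and left-out arrays were tried. Epithelial markers (4 of 4 above background in the lines, 2 of 4 in MEF) and endothelial ones (2 or 3 of 6 in each group) were also read.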

Additional observations from a re-analysis of the deposited data

How the results depend on the processing

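The counts of members called against MEF stayed within 18 to 28 over 19 settings each. Among smaller counts, IP14D-101 against CL11 (8) became 4 without scaling and 5 with the mean of a gene's probe sets; IP14D-101 against IP14D-1 (9) became 16 with median scaling; IP20D-3 against IP14D-1 (6) became 10 without scaling and 3 without the variance trend, and 3 to 4 on leaving out 1 array; IP20D-3 against IP14D-101 (5) became 9 with median scaling and 3 without the trend, and 3 to 5 on leaving out 1 array. On leaving out each array in turn, the 22 calls of CL11 against MEF lost Tap2 and Ifit3 at some point, and 20 held throughout; 18 of 21 held in IP14D-1, 21 of 25 in IP14D-101 and 17 of 21 in IP20D-3.

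Scaling moved the centre of all genes. Unscaled, the median of all genes was -0.34, 0.05, -0.51 and -0.52 against MEF in the 4 lines (CL11 first, then the iPS lines), and of all calls 39.2%, 53%, 33.4% and 31.7% were higher, beside 56%, 56.7%, 55.2% and 56.3% with scaling. Median scaling gave 64.3%, 56.1%, 67.3% and 59.8%. Against CL11 the unscaled shares were 88.2%, 19.6% and 18.7% in IP14D-1, IP14D-101 and IP20D-3, the median-scaled ones 21.7%, 72.4% and 30.8%, and the main ones 48.2%, 52.5% and 48.2%. Between iPS lines they were 5.66%, 0.979% and 36.8% unscaled, 83.9%, 72.6% and 19.6% median-scaled, and 53.2%, 53% and 46.9% in the main setting, for IP14D-101 against IP14D-1, IP20D-3 against IP14D-1 and IP20D-3 against IP14D-101. Members lower against MEF numbered 24, 16, 25 and 25 unscaled and 16, 16, 15 and 15 with median scaling. Against CL11, members higher and lower in IP14D-1 were 8 and 1 unscaled and 4 and 9 with median scaling. For IP14D-101 against IP14D-1 they were 1 and 9 unscaled and 13 and 3 with median scaling, with all-gene medians of -0.51 and 0.32.

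Called values changed sign in these cases. Without scaling, against MEF, Irf1 was -0.22 and Ifitm2 -0.32 in IP14D-101, and Psmb10 was -0.29 and Bst2 -0.08 in IP20D-3. Ifitm2 was 0.01 in IP14D-1 against CL11. Against IP14D-1, H2-K1 was -0.08 and Ifitm2 -0.09 in IP14D-101, and H2-D1 was -0.18 and Ifitm2 -0.20 in IP20D-3. With the mean of a gene's probe sets, Rsad2 was -0.40 in CL11 against MEF, H2-D1 -0.26 in IP14D-101 against CL11, Irf3 -0.01 in IP14D-101 against IP14D-1 and H2-D1 -0.95 in IP20D-3 against IP14D-1. Without probe sets marked _x or _s, Irf3 was 0.13 in IP14D-1 against MEF and H2-D1 -0.66 in IP20D-3 against IP14D-1. Fitting each probe set on its own was added after the data were seen. By that fit H2-D1 was -2.24 and -2.83 in IP14D-101 against CL11, -1.99 and -3.11 in IP20D-3 against CL11 and -2.31 and -2.94 in IP20D-3 against IP14D-1 (1425614_x_at and 1452544_x_at), and Rsad2 was -2.27 in CL11 against MEF (1421008_at). The cause was not tested. Here only called values count as changing sign, and another probe set counts only where it passed itself; the brightest probe sets were kept under other scalings and pseudocounts.

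With the replicate number as a block, the counts were 22, 20, 25 and 21 against MEF, 11, 8 and 9 against CL11, and 9, 5 and 5 between iPS lines, in the order used above. The block ended the calls of Gbp2 in IP14D-1 against MEF and H2-D1 in IP20D-3 against IP14D-1, added Bst2 in IP14D-1 against CL11, and changed no other call. Deviations of same-numbered arrays correlated from -0.0296 to 0.0334 over 30 pairs of groups and numbers, so the numbers are not taken as pairs.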
